A study of Mus musculus with 18 samples.

Results

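Splenic T cells of mice lacking Beclin 2 were compared with splenic T cells of wild-type mice by sequencing of polyadenylated RNA, and 587 genes were called by the authors. They are all the genes of the authors' deposited table for this comparison, out of about 25015 genes tested, and the 5 tables of the series together listed 2202 genes. Both groups, knockout T cells (n = 2 libraries) and wild-type T cells (n = 2 libraries), came from mice aged 8 weeks whose strain was given as C57BL/6. Neither group was stimulated, and RNA was taken straight from the cells without a culture step. The series held 18 samples in 9 groups, and knockout and wild-type splenic B cells and lymph nodes, also 2 libraries a group, are set beside the T cells where genes were shared. The B cell groups were also of 8 weeks, while no age in weeks was at hand for the lymph node groups. The labels did not say how the knockout was made or how T cells were purified, nor whether each library came from its own animal. The p-values therefore measure the spread between these libraries only, which may be technical. In such bulk RNA, fewer cells of a type and less RNA per cell cannot be told apart.

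Beclin 2, encoded by the gene Becn2, is a mammalian relative of the autophagy protein Beclin 1, and it is known both for a role in autophagy and for the breakdown of certain G protein-coupled receptors. Splenic T cells are a mixture of naive cells, which circulate at rest, and of antigen-experienced cells such as follicular helper cells, which help B cells make antibody and carry inhibitory checkpoint receptors. The spleen also holds B cells, antibody-secreting plasma cells, macrophages and granulocytes, whose RNA can enter a T cell preparation.

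The targeted gene could not be checked. Neither Becn2 nor Becn1 was listed among the called genes, and the authors' deposited table gave no level for genes that were not called. None of the 43 autophagy genes looked up was called by the authors' DESeq test. As 2.35% of all genes tested were called, so short a list could hold 0 by that share alone. The count therefore does not show that these genes were unchanged. A table of called genes holds no count at an unadjusted p under 0.05. Of 26 T cell identity genes, Cd8b1 alone was called, and its normalised reads of 3820.1 and 4744 in the knockout libraries, with a wild-type mean of 7028 in the authors' deposited table, show its mRNA in the preparations. Among 30 B cell identity genes 2 were called (6.67%, beside 2.35% of all genes tested). Blnk was higher in knockout (log2 fold change 1.16) and Faim3 lower (-1.21). The defining T cell markers Cd3d, Cd3e, Cd3g, Cd247, Cd4, Cd8a and Thy1 were not listed, and neither were the B cell markers Ms4a1 and Cd79a. The share of T cells in the preparations could therefore not be read. Transcripts of other cell types were present in both genotypes. Igkc, the kappa constant region, had group means of 167672 in knockout and 25120.5 in wild type, and the macrophage receptor gene Csf1r 5187 and 1789.

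The 587 calls, at an adjusted p under 0.05 in the authors' DESeq test, were 2.35% of the genes tested. In knockout 418 were higher (1.67%) and 169 lower (0.676%). Each count over a gene list given below is to be read beside these shares of all genes tested. The median log2 fold change, knockout over wild type, was 1.14 over all called genes, 1.54 over the higher genes and -1.01 over the lower genes. Without receptor segments and predicted or unnamed genes, 320 higher and 123 lower genes were left. Without receptor segments and listed markers of cell types other than T cells, the counts were 273 and 129. Levels are given as reads divided by the size factor of the library, called normalised reads. They were recovered per library from the digits of the group means, for 583 genes in knockout and 512 in wild type. Library A of each genotype is the library with the smaller size factor (1.0125 in knockout and 0.8423 in wild type) and library B that with the larger (1.0735 and 1.1084). The letters tie no knockout library to a wild-type library. In all 512 genes with reads in the 4 libraries the genotypes did not overlap, which the calling itself selects for.

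**Figure D1:**
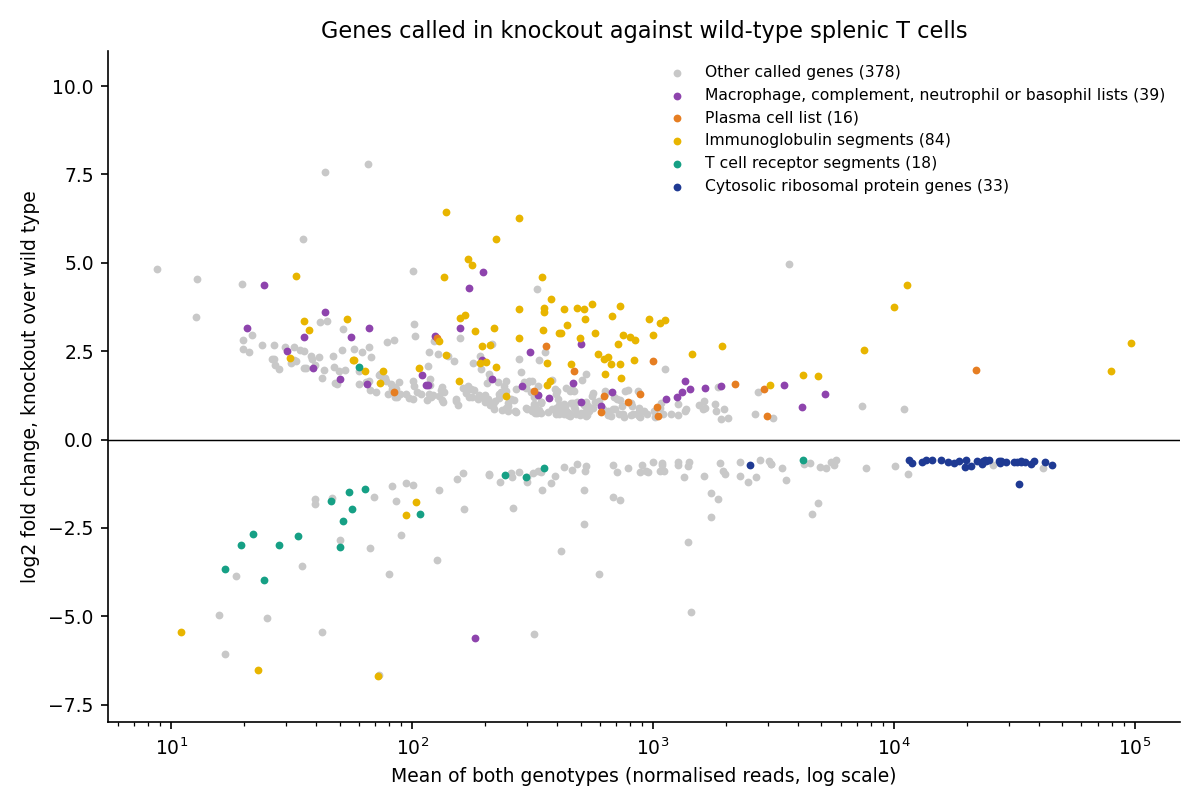
Log2 fold change, knockout over wild type, against the mean level of both genotypes in normalised reads (log scale) for the 568 called genes with reads in both genotypes. Each point is a gene coloured by list, a gene on several lists taking the last colour of the legend that applies, and the 33 ribosomal protein genes form a dense band of small falls at high level while the 84 immunoglobulin segments drawn lie mostly above 0.

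Genes of cytosolic ribosomal proteins were lower in knockout T cells. The cytosolic ribosome is built from a small and a large subunit, each made of ribosomal RNA and many proteins, and T cells raise its production when they leave rest. Of 79 ribosomal protein genes looked up, 33 fell and 0 rose, 15 of 47 in the large subunit and 18 of 32 in the small subunit, that is 41.8% of the list beside 0.676% of all genes tested. The falls were small and alike, with a median log2 fold change of -0.62 and a range from -1.26 to -0.57. Rpl3, a large-subunit protein near the peptidyl transferase centre, had 16471 and 22519 normalised reads in the knockout libraries, and the authors' deposited table gave a wild-type mean of 46572 (log2 fold change -1.26, adjusted p = 3.3e-11). Rps3a1, a small-subunit protein, had 29183 and 38948 in knockout against a wild-type mean of 56367 (-0.73, adjusted p = 0.00124 in the authors' deposited table). Rps29, of the same subunit, stood at 15840.2 and 19493 in knockout against a wild-type mean of 28727 (-0.70, adjusted p = 0.00212 in the authors' deposited table). Both knockout libraries lay below the wild-type mean in each of these genes, but the wild-type reads per library could not be recovered at these levels, so whether the genotypes overlapped is not known.

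The knockout libraries differed from each other in the same genes. In all 32 ribosomal protein genes with reads in both knockout libraries, library A was lower than library B, at a median ratio of 0.744 (highest 0.813). Without library A the median log2 fold change of these 32 genes was -0.42 and 1 of them stayed at least 1.5-fold lower, and without library B the median was -0.85 and all 32 did. Rps15a, for example, had 12805 normalised reads in knockout library A and 18293 in library B, against a wild-type mean of 26079.6 in the authors' deposited table. By the group means of the authors' deposited table, called immunoglobulin segments summed to 420519 in knockout against 76996 in wild type, and the 33 ribosomal protein genes to 629831 against 993693. Whether the share of reads taken by immunoglobulin mRNA bears on the level of other abundant mRNAs was not tested. In B cells and lymph node, where 1.24% and 0.475% of all genes tested were called, 0 ribosomal protein genes were listed as called by DESeq. Unadjusted p-values were not at hand, and the difference between tissues was not tested.

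**Figure D2:**
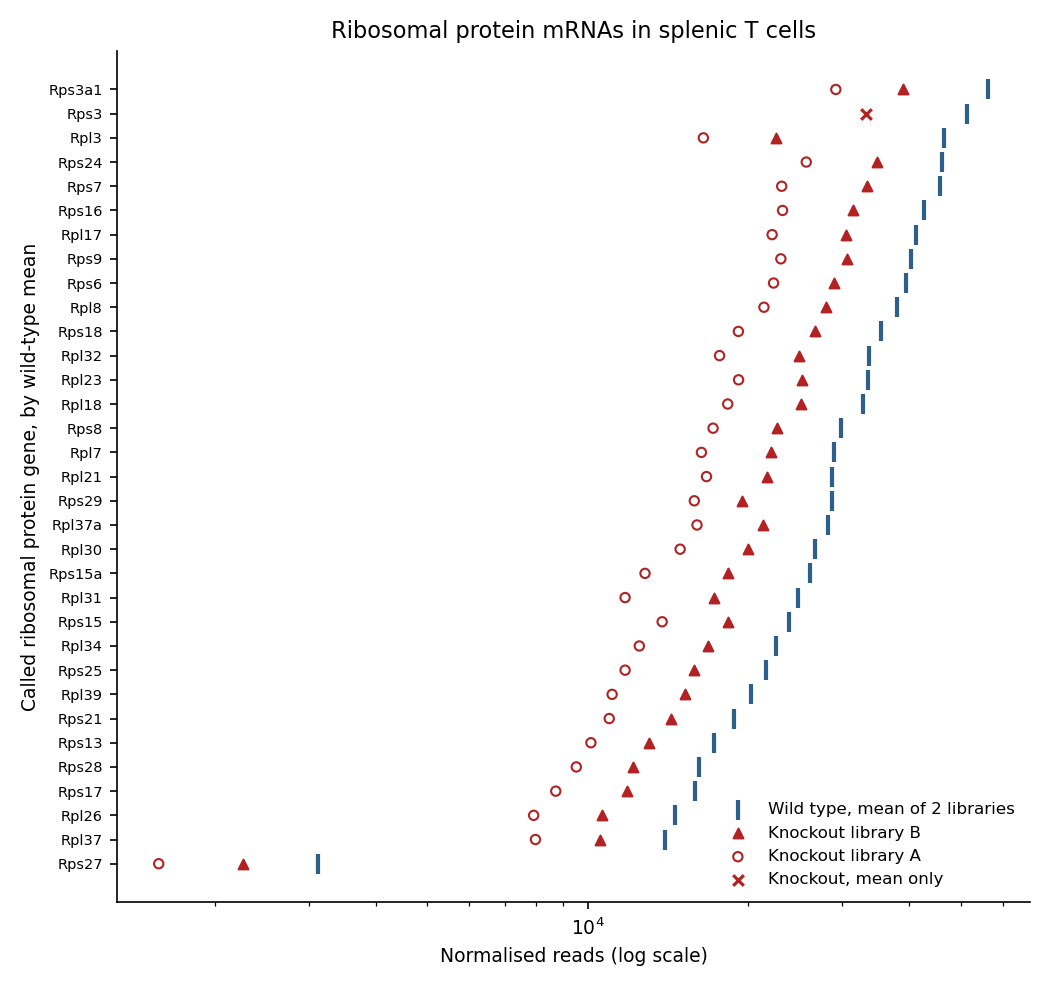
Normalised reads (log scale) of the 33 called ribosomal protein genes, with 1 row a gene, ordered by the wild-type mean. Open circles are knockout library A, triangles knockout library B, bars the authors' wild-type mean and a cross the authors' knockout mean where reads were not recovered, and in every row with both libraries A lies left of B and B left of the wild-type bar.

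Some of these genes have near-identical copies, and how reads were assigned between them is not given in the sources used here. The retrogene Rps27rt had the same fall as Rps27, and RefSeq on build GRCm38.p6 gives both nearly the same opening bases. The first 30 bases from each annotated start are shown for that reason, Rps27 at chr3:90213619-90213648 and Rps27rt at chr9:114982710-114982739, both on the minus strand, with the shared bases in capitals.
Rps27: cCTTTCCGGCGGTGACGACCTCCCTACGAG
Rps27rt: CTTTCCGGCGGTGACGACCTCCCTACGAGA
The shared run was 38 bases long within the 50 bases after each start, so a read lying within it has the same letters in both genes. Rps27rt held 91.1% of the summed reads of the pair in knockout and 91.2% in wild type, and the sum fell by 0.72 on the log2 scale. The other pair did not keep its division. Rpl3-ps1, a pseudogene of Rpl3 on chromosome X, had 6136 and 8008 normalised reads in knockout against 234 and 219 in wild type (log2 fold change 4.96), with no overlap. It took 26.6% of the summed reads of Rpl3 and Rpl3-ps1 in knockout and 0.484% in wild type, and the sum fell by 0.82 on the log2 scale where Rpl3 by itself fell by 1.26.

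Gas5, a noncoding host of small nucleolar RNAs that carries the same kind of pyrimidine-rich start as ribosomal protein mRNAs, had 1485 and 1939 normalised reads in knockout against a wild-type mean of 7398 (log2 fold change -2.11, adjusted p = 2.39e-29 in the authors' deposited table). It fell to a similar size in B cells (-2.20) and lymph node (-2.27). Snhg1, another host of small nucleolar RNAs, fell by 0.68 and was the only gene called of a list of 1345 small RNAs and their hosts that did not hold Gas5. Of 26 translation factors and other mRNAs with such starts, Gas5 was the only gene called. Atf4, a transcription factor of the integrated stress response, had 3127 and 4203 in knockout against a wild-type mean of 6240.0 (-0.77), again with library A below library B.

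T cell receptor segments were called lower in 17 cases and higher in 1, of 268 looked up (6.72% called, beside 2.35% of all genes tested). These variable segments are joined anew in each T cell precursor, so that a segment's level follows which clones are present. The constant region Trbc1 had 3236 and 3470.1 normalised reads in knockout against a wild-type mean of 5032 (log2 fold change -0.59, adjusted p = 0.0252 in the authors' deposited table). Among variable segments, Trav7-3 had 2.96 and 2.79 in knockout against 52.2 and 38.8 in wild type (-3.98), and Trbv29 had 181 and 203 against 392 and 408 (-1.06). Neither overlapped between genotypes. The knockout libraries were unequal in this list, with library A above library B in 13 of the 18 called segments at a median ratio of 2.47. The median log2 fold change of the 17 lower segments was -3.15 without knockout library A and -1.31 without library B. Trav16, for example, was at 39.5 and 6.52 against 85.5 and 93.8 in wild type, and its log2 fold change of -1.96 ran from -3.78 to -1.18 with 1 library left out. Trav8d-1 alone rose, from 28.5 and 18.0 to 75.1 and 118 (2.05). Reads can be divided among near-identical Trav copies, so single Trav values are uncertain. Dntt, the polymerase that adds bases at the joints of receptor genes in precursors, had 74.1 and 66.1 in knockout against 169.8 and 207 in wild type (-1.42).

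Checkpoint receptors rose. Of 15 genes of checkpoint receptors and exhaustion, 5 rose (33.3%, beside 1.67% of all genes tested) and 0 fell, all at least 2-fold. Lag3, an inhibitory receptor that binds MHC class II, had 824 and 821 normalised reads in knockout against 250.5 and 208 in wild type, a log2 fold change of 1.84 (adjusted p = 5.88e-15 in the authors' deposited table). Tigit, an inhibitory receptor for nectin-like ligands, had 567 and 580.4 against 249 and 172 (1.44), and Pdcd1, the receptor PD-1, had 524 and 592 against 265 and 237 (1.15). In each of the 3 both knockout libraries lay above both wild-type libraries. Lag3 rose in B cell preparations too, at 1.77, with group means of 490.9 in knockout and 144.3 in wild type. It was the only gene of the 15 called higher in B cells, and 2 were called lower there. The ectoenzymes Entpd1 (CD39) and Nt5e (CD73), which turn extracellular ATP into adenosine, also rose, Entpd1 from 408 and 258 to 874 and 683 (1.22) and Nt5e from 680.3 and 720.0 to 1532 and 1365 (1.05). Nt5e is on the list of germinal centre and atypical B cell genes too. Of the 18 genes of that list 2 rose, Nt5e and Plxnb2 (1.37), and 0 fell (11.1%, beside 1.67% of all genes tested). The other members of the checkpoint list, such as Ctla4 and Havcr2, were not listed as called.

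Follicular helper genes rose in 7 of 15 cases (46.7%, beside 1.67% of all genes tested), with 0 falls. The median log2 fold change was 1.02. Il21, the cytokine by which these cells drive plasma cell formation, had 128 and 96.9 normalised reads in knockout against 29.7 and 15.3 in wild type (2.32, adjusted p = 6.26e-06 in the authors' deposited table). Sostdc1, a secreted antagonist of bone morphogenetic proteins, had 178 and 96.0 against 29.7 and 10.8 (2.76). Maf, a transcription factor that promotes Il21 expression, rose from 1074 and 1009 to 2114 and 2032 (0.99). Angptl2 (1.64), the phosphatase Ptpn13 (1.02), the ligand Tnfsf8 (0.81) and the B lineage coactivator Pou2af1 (0.91) made up the rest, and none overlapped between genotypes. Pou2af1 is on the plasma cell list too. The other 8 genes of the list were not called, and Bcl6, Cxcr5 and Icos were absent from the called genes. Slamf6, a homotypic receptor used in T cell and B cell contacts, had 2366 and 2727 against 1301 and 1493 (0.87).

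Effector genes went both ways, with 2 rises and 2 falls in 36 (11.1% called, beside 2.35% of all genes tested). Gzmk, a granzyme of antigen-experienced T cells, had 179.7 and 184 normalised reads in knockout against 14.2 and 33.4 in wild type (log2 fold change 2.93). It rose in B cell preparations too, at 2.09, where the authors' deposited table gave means of 84.2 and 19.8. Gzmk was the only gene of the 36 called higher in B cells, and 8 were called lower there. Prdm1, the repressor Blimp-1 used by effector T cells and by plasma cells, rose from 175 and 181 to 509 and 411 (1.37). Crip1, a small LIM domain protein, fell from 2176 and 2181 to 959 and 1187 (-1.02), and Cxcr6, a chemokine receptor of tissue-homing T cells, from 1327 and 1115 to 595 and 717 (-0.90). Naive T cell genes fell in 3 of 19 cases (15.8%, beside 0.676% of all genes tested) and rose in 0. Sox4, a transcription factor, had 300.2 and 359 in knockout against 584 and 600.0 in wild type (-0.85), Tdrp fell by 0.73 and Dapl1 by 0.71, each less than 2-fold. Other naive markers, such as Ccr7, Lef1 and Il7r, were not listed as called. Among regulatory T cell genes Tnfrsf4 (OX40) was at 0.80 and the integrin Itgae at -0.62, 2 of 17 (11.8% called).

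**Figure D3:**
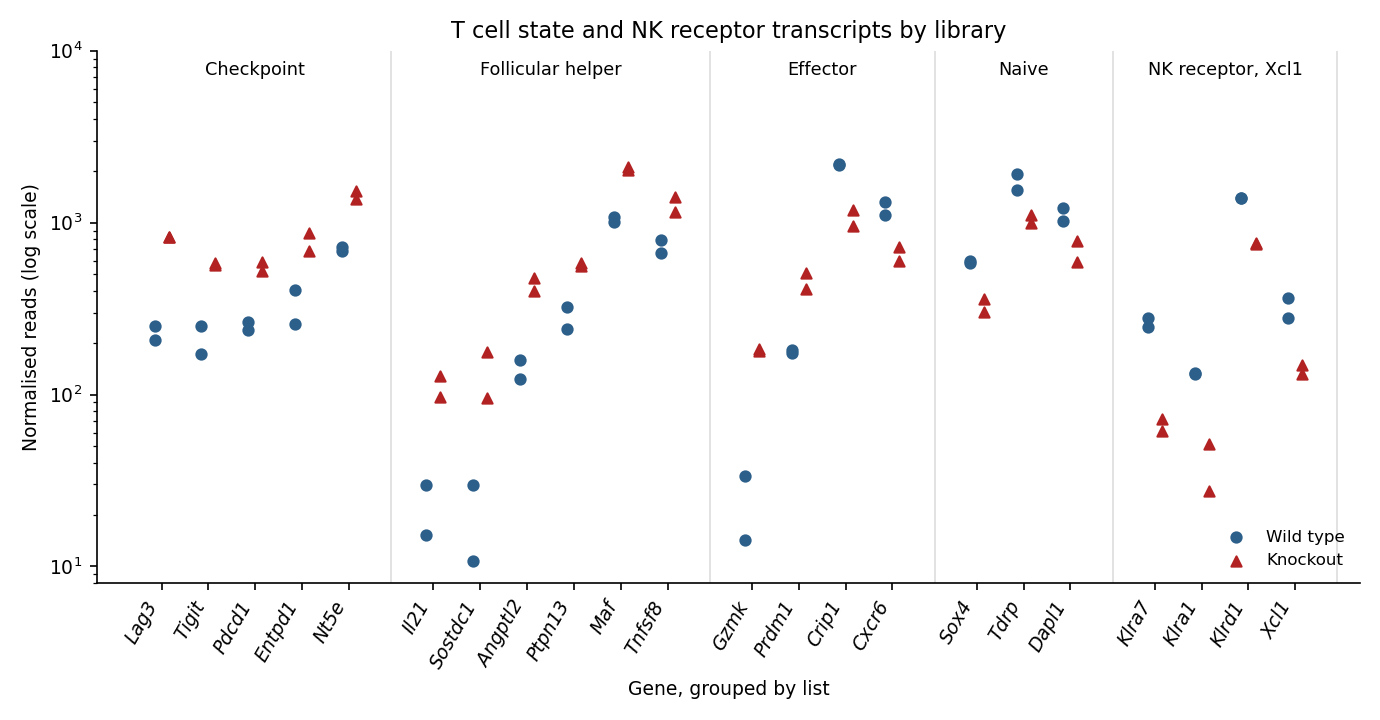
Normalised reads (log scale) in each library for checkpoint, follicular helper, effector and naive T cell genes and for NK receptor genes with Xcl1. Circles are the 2 wild-type libraries and triangles the 2 knockout libraries, and in none of the genes drawn do the genotypes overlap.

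Natural killer cell genes fell in 5 of 36 cases and rose in 1 (16.7% called, beside 2.35% of all genes tested). The Klra genes encode Ly49 receptors for MHC class I, and Klrd1 encodes CD94, which natural killer cells share with some CD8 T cells. Klra7 had 72.1 and 61.5 normalised reads in knockout against 278 and 247 in wild type (log2 fold change -1.97), and Klra1 had 27.7 and 51.2 against 132 and 133 (-1.74). Klrd1 had 757 and 747 against 1384 and 1389 (-0.88), and Xcl1, a chemokine of natural killer and CD8 T cells, 131 and 148 against 362 and 281 (-1.20). Wild-type and knockout libraries stood well apart in these 4. Klra2 went the other way, with 127 and 82.9 against 28.5 and 9.02 (2.49), and reads of the Klra family can be divided among near-identical copies. Of the 6 genes, 4 were also called in B cells. Ncr1 and Klrb1c, which define natural killer cells, were not listed.

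Immediate early genes fell. These genes are switched on within minutes of a stimulus or of handling. Of 37 looked up, 6 fell (16.2%, beside 0.676% of all genes tested) and 0 rose, all less than 2-fold. Junb, an AP-1 subunit, had 29432 and 30697 normalised reads in knockout against a wild-type mean of 52731 (log2 fold change -0.81, adjusted p = 0.000107 in the authors' deposited table). The phosphatase regulator Ppp1r15a fell by 0.97, the transcription factor Klf6 by 0.74, Ier2 by 0.58 and the MAP kinase phosphatases Dusp6 and Dusp2 by 0.73 and 0.68. Dusp6, whose reads were recovered in every library, had 841 and 793 against 1345 and 1361, without overlap. Spry2, a feedback inhibitor of ERK signalling like Dusp6, had 130.4 and 151 against 237 and 318 (-0.98). Junb, Klf6, Dusp6 and Dusp2 were lower in B cells too, at -0.92, -1.12, -0.82 and -0.84 in the authors' deposited table for B cells. The time between killing and lysis was not given in the sources used here, and its part in these values was not tested.

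Interferon-stimulated genes rose in 11 of 55 cases, with 0 falls and a median log2 fold change of 1.23. Type I interferons switch these genes on through the interferon-stimulated response element (ISRE). Oas1g, of the oligoadenylate synthetases that activate RNase L on viral RNA, had 102 and 82.9 normalised reads in knockout against 9.50 and 11.7 in wild type (3.12), and Oas2 had 1227 and 1060.1 against 338 and 521 (1.41). Ifi44 had 347 and 237 against 59.4 and 71.3 (2.16). Knockout stood above wild type in each without overlap. The other rises were those of the GTPase Mx2 (1.23), the membrane protein Ifitm3 (1.60), the antigen Ly6a (1.49), the deconjugase Usp18 (0.95), the kinase Eif2ak2 (0.73), Oas1a (0.75), Oasl1 (0.76) and Trim30d (0.67). Of the 11, 6 were also called in B cells and 0 in lymph node by the authors' DESeq test. Ifitm3 is on the monocyte list too. The list leaves out other genes that interferon induces, of which Epsti1 fell by 1.15 and the PYHIN family, described apart, had 4 falls and 2 rises.

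The core of the ISRE, taken as GAAA, then 2 bases of any kind, then GAAA, on either strand and with overlapping matches counted, was looked for in RefSeq windows from 250 bases before to 50 bases after the annotated start. Windows were held for 7 of the 11 genes, and 5 of these 7 (71.4%) had it, beside 3.99% of 27025 genes and 5.87% of the 341 called genes with a window. Of them 4 are shown with a single match in capitals, all on the minus strand of GRCm38.p6, with Oas1a at chr5:120907526-120907555, Oas1g at chr5:120887612-120887641, Ifitm3 at chr7:141010706-141010735 and Eif2ak2 at chr17:78882535-78882564.
Oas1a: cccttctcggGAAATGGAAActgaaaatct
Oas1g: cccttctcggGAAATGGAAActgaaaatct
Ifitm3: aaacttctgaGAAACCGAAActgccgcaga
Eif2ak2: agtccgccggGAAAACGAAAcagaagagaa
Oas1a, Oas1g and Ifitm3 each had another match beside that in capitals, and in Oas1a and Oas1g it overlaps the match shown. The windows of Oas1a and Oas1g are identical here, and reads of these neighbouring copies can be divided between them. A match describes these letters and is not a measured binding site. The list was made of known interferon-stimulated genes, so a share above that of all genes may follow from the list itself. Members of the list that were not called were not set beside them, and the share gives no support to the rises.

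Plasma cell genes rose in 16 of 31 cases, with 0 falls and a median log2 fold change of 1.36. Derl3, which moves misfolded proteins out of the endoplasmic reticulum, had 589.6 and 647 normalised reads in knockout against 134 and 64.1 in wild type (2.64, adjusted p = 7.87e-25 in the authors' deposited table). Sdc1, the surface marker CD138, had 738 and 753 against 260.0 and 129.9 (1.93), and Xbp1, the factor that builds the secretory apparatus, 3217 and 3301 against 1261 and 932 (1.57). Eaf2 (2.88), the chaperone cofactor Mzb1 (2.22), the disulfide isomerase Txndc5 (1.42), Creld2 (1.29) and Irf4 (1.08) rose as well. Within wild type, library A held more than library B in Derl3, Sdc1 and Xbp1, while the knockout libraries were close together. Of 36 genes of folding and secretion, 4 rose and 0 fell, Hsp90b1 (0.95), Tram2 (1.37), Sec24d (0.75) and Lman1 (0.65). Regulators of the unfolded protein response were divided, with Ern1 (0.87) and Creb3l2 (1.29) higher and Atf4 and Ppp1r15a lower.

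The endoplasmic reticulum stress element, taken as CCAAT, then 9 bases of any kind, then CCACG, on either strand, was searched for in the same windows because Xbp1 and Atf6 are known to act through it. It was in 3 of the 17 called plasma cell and folding genes with a window (17.6%), beside 0.137% of all genes and 1.17% of called genes. They are shown with the match in capitals, Derl3 at chr10:75893237-75893266 and Creld2 at chr15:88819515-88819544 on the plus strand and Hsp90b1 at chr10:86705632-86705661 on the minus strand, of GRCm38.p6.
Derl3: tctacCGTGGGACTTCCCCATTGGctagcc
Creld2: cttctCGTGGCGAGCCTCAATTGGtccaca
Hsp90b1: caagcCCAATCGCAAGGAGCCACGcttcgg
In Derl3 and Creld2 the match is on the opposite strand of the gene, and Hsp90b1 had another match beside the one shown. These matches too are descriptions of letters in a window. Here as well the share may follow from the choice of lists, and members that were not called were not set beside them.

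Immunoglobulin segments made up 97 of the called genes, 82 higher and 15 lower. All 46 called kappa variable segments of 160 rose, with a median log2 fold change of 3.02. Igkv6-15 had 2079 and 2019 normalised reads in knockout against 264 and 129 in wild type (3.38), and Igkv13-84 had 796 and 790.0 against 113 and 9.92 (3.69, from 2.81 to 6.32 with 1 library left out). The kappa constant region Igkc had a mean of 167672 in knockout and 25120.5 in wild type, and Ighm, the mu constant region, 126815 and 32764, in the authors' deposited table. The constant regions of switched antibody classes rose as well. Ighg3 had 16016 and 27234 against 1427 and 673 (4.36), Ighg2c 12806 and 24306 against 2123 and 609 (3.76), and Ighg2b 10983 and 14546 against a wild-type mean of 2214 (2.53) in the authors' deposited table. In Ighg3 and Ighg2c the genotypes stood apart, though the libraries of each genotype were unequal.

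Heavy chain variable segments were the exception to the rises, with 23 higher and 15 lower of 185. Of the 15 lower segments, 14 were also lower in B cells and 11 in lymph node, where 0.751% and 0.294% of all genes tested were called lower. Of the 23 higher segments 1 was also higher in B cells and 2 in lymph node, where 0.493% and 0.181% of all genes were called higher. No read of Ighv1-39 was recovered in knockout (0 and 0), while wild type had 189.9 and 144 normalised reads. Taking 3 reads over the knockout group as the floor, it was at least 116-fold lower. Ighv5-16 likewise had 0 reads in knockout against 81.9 and 80.3, at least 56.4-fold lower. In all, 10 of the 15 were at 0 in both knockout T cell libraries. At the other end, Ighv1-14 was at 0 in wild type with 700.2 and 1940.5 normalised reads in knockout, which by the same floor is at least 859-fold higher. Reads of Ighv segments can be divided among near-identical copies.

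Macrophage genes rose in 20 of 46 cases and fell in 1, with a median log2 fold change of 1.46. Csf1r, the receptor for the macrophage growth factor, had 5914 and 4460.4 normalised reads in knockout against 2522 and 1056 in wild type (1.54), and Cd5l, made by spleen macrophages, 1980.2 and 2138 against 921 and 374 (1.67). Siglec1, a lectin of marginal zone macrophages, had 603 and 441 against 137 and 52.3 (2.47), and the Fc receptor Fcgr4 361 and 285 against 86.7 and 49.6 (2.25). Wild-type library A was above library B in each of these, and both were below both knockout libraries. Complement genes rose in 5 of 15 cases, among them the C1q chains C1qa (1.42), C1qb (1.36) and C1qc (1.46), which macrophages make. C4b, an early component of the classical pathway, stood apart with 392 and 369 against 13.1 and 15.3 (4.74, adjusted p = 1.35e-38 in the authors' deposited table). Its wild-type libraries were alike, unlike those of the C1q chains, which were 1077 and 474 for C1qa. Red pulp macrophage genes rose in 5 of 18 cases, such as Timd4 (1.54) and the iron transporter Slc11a1 (1.35), and lysosome genes in 8 of 38, among them Grn (1.09), Lgmn (1.19) and Cd68 (0.96), with 0 falls in either list.

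The fall within the macrophage list was that of Lyz2, the lysozyme of macrophages, with 9.88 and 4.66 normalised reads in knockout against 435 and 277 in wild type (log2 fold change -5.61). Its neighbour Lyz1 rose from 13.1 and 13.5 to 91.8 and 105 (2.89). Summed over the pair, knockout had 106 normalised reads and wild type 369, and Lyz1 made up 93.1% of the sum in knockout and 3.60% in wild type. Reads can be divided between these near-identical copies on chromosome 10.

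Granulocyte genes rose from low levels. Of 32 neutrophil genes 10 rose and 0 fell, with a median log2 fold change of 2.80. Elane, a protease of immature granules, had 237 and 331 normalised reads in knockout against 41.6 and 21.7 in wild type (3.17), and Mpo, the peroxidase of the same granules, 674 and 1066 against 163 and 106 (2.69). The alarmins of mature neutrophils, S100a8 and S100a9, stood lower, at 52.3 and 71.7 against 17.8 and 12.6 (2.03) and at 44.4 and 58.7 against 15.4 and 2.71 (2.51). Knockout libraries lay above wild-type libraries in all 4. Of 21 basophil and mast cell genes 3 rose and 0 fell. Prss34, a protease of basophils, had 301 and 351 against 19.0 and 14.4 (4.29), Mcpt8 123 and 116 against 21.4 and 5.41 (3.16), and Ms4a2, the beta chain of the high-affinity IgE receptor, 44.4 and 29.8 against 4.75 and 3.61 (3.15). None of 28 erythroid genes was called by the authors' DESeq test, beside 2.35% of all genes tested, again without unadjusted p-values.

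Sums over the called members with reads in all libraries show how the libraries of a genotype differed from each other. That the genotypes stand apart in these sums follows from the choice of called genes. The 19 macrophage genes summed to 26273 and 21777 normalised reads in knockout against 12236 and 6193 in wild type libraries A and B. The 15 plasma cell genes summed to 20918 and 22142 against 10452 and 8041. The 10 neutrophil genes summed to 1577 and 2206 against 379 and 234. Wild-type library B was below wild-type library A in each. Without wild-type library B the median log2 fold change was 1.05 for macrophage, 1.12 for plasma cell and 2.41 for neutrophil genes, and without library A it was 2.07, 1.71 and 3.42. For checkpoint and follicular helper genes the medians were 1.09 and 0.95 without wild-type library B and 1.59 and 1.25 without library A. The checkpoint median moved nearly as far as the plasma cell median, and the follicular helper median moved less. The part of other cells in the rises of genes that T cells share with them, such as Prdm1, Irf4, Pou2af1, Entpd1 and Nt5e, was not tested. Their part in the falls of T cell transcripts was not tested either.

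**Figure D4:**
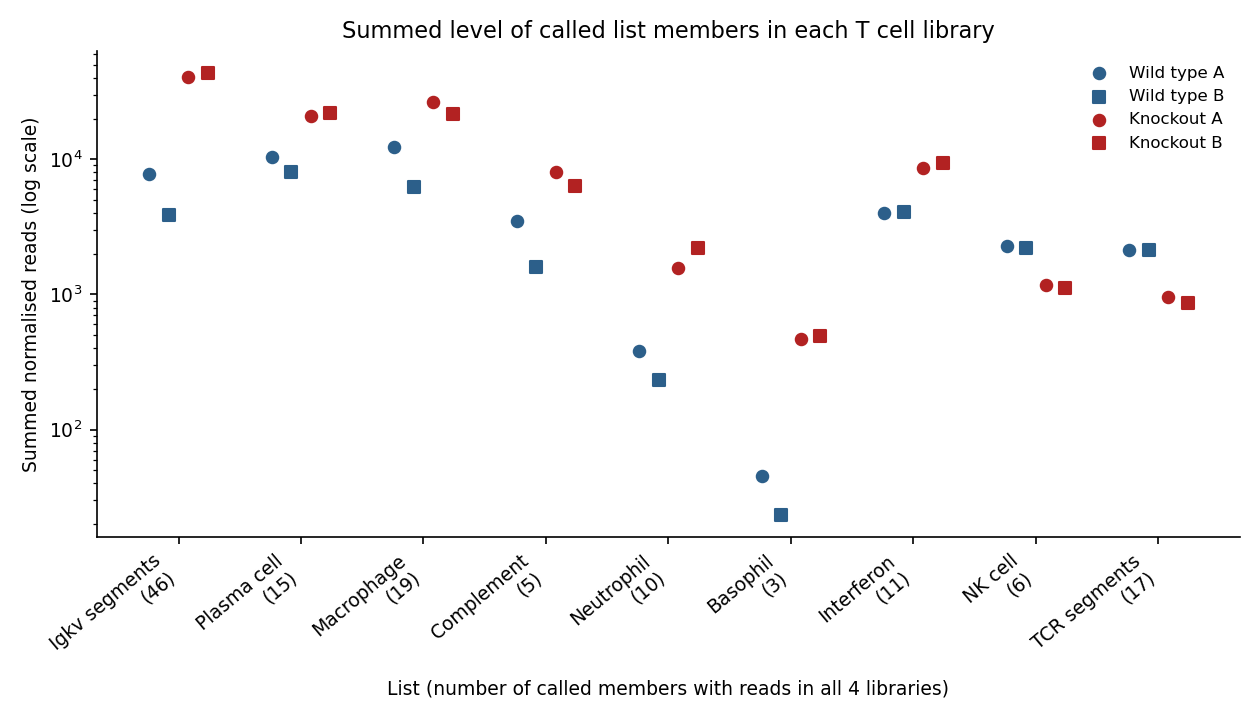
Summed normalised reads (log scale) of the called members of 9 lists in each T cell library, with the number of members summed below each name. Blue marks wild type, red knockout, circles library A and squares library B. The order of the genotypes is set by the choice of called genes, and wild-type A lies above wild-type B in the kappa segment, plasma cell, macrophage, complement, neutrophil and basophil lists.

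Genes of the PYHIN family, sensors of nucleic acids that interferon induces, lie together close to Becn2 and were called in both directions. Becn2 is at chr1:175920329-175922225 by RefSeq on GRCm38.p6, and its called members lay between 1.96 and 2.45 Mb from it. Ifi202b, at chr1:173962568-173982744 by GENCODE M21 on GRCm38, had 135 and 127 normalised reads in knockout against 1.19 and 0 in wild type, a log2 fold change of 7.79 between the group means. The ratio of reads pooled over each group, which rests on 1 wild-type read, was 255 (95% exact interval for counting error 45.4 to 10120.0). Ifi204 had 372 and 372 against 77.2 and 37.0 (log2 fold change 2.70). Pydc4 had 120.5 and 68.9 in knockout against a wild-type mean of 2765 (-4.87), Gm4955, named Ifi206 in the annotation, 309 and 349 against 2471 (-2.91), and Pydc3, named Ifi208 there, 978 and 792 against 2838 (-1.68), with wild-type means from the authors' deposited table. Pyhin1, named Ifi209, fell by 1.03. These 6 were called of 14 looked up, 2 higher and 4 lower, and reads can be divided among such similar copies.

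Within 20 Mb (megabases) of Becn2 lay 14 called genes, 6 higher and 8 lower, all of them on the side of lower coordinates. Of 356 protein-coding genes in that window 13 were called (3.65%), and of 219 within 10 Mb 11 (5.02%), beside 2.02% of 21951 protein-coding genes outside receptor segments in the genome. By chromosome the share was 3.06% on chromosome 1, 3.34% on chromosome 19, 3.22% on chromosome 13 and 0.844% on the X chromosome. Besides the PYHIN genes, the window held Gas5, Fcgr4, Slamf6 and Xcl1, described above, and Igsf8 (0.94), Atp1b1 (-0.88) and the polarity gene Vangl2 (-1.63). Itln1, an intestinal lectin, was at 0 in wild type and at 20.7 and 20.5 normalised reads in knockout, at least 13.4-fold higher by the floor of 3 reads. How the knockout allele was made, and in cells of which strain, is not given in the sources used here.

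Another stretch with many calls lay on chromosome 15, where 9 genes were called between positions 75000001 and 80000000. Apol7e, an apolipoprotein L family member, had 85.9 and 74.5 normalised reads in knockout against 1091 and 1133 in wild type (log2 fold change -3.79, adjusted p = 3.03e-54 in the authors' deposited table). Its neighbour Apol7c had 8.89 and 18.6 against 778 and 477 (-5.51). Apobec3, a cytidine deaminase that restricts retroviruses, had 665 and 599 against a wild-type mean of 2862 (-2.18) in the authors' deposited table, and it was lower in lymph node too (-0.95). Both knockout libraries were far below wild type in all 3. The polycomb gene Cbx7 (-1.51), Gm8221 (-3.07), the mitochondrial import receptor Tomm22 (-0.62) and Rpl8 (-0.62) fell in the same stretch, while the cytokine receptor chain Csf2rb (0.71) and RP23-458B6.6 (2.28) rose. The stretch, 5 Mb long, was picked for its number of calls and held 160 protein-coding genes. Its 9 calls include the predicted or unnamed Gm8221 and RP23-458B6.6, so no share of the 160 is given. A stretch of chromosome 1 between positions 150000001 and 155000000 had fewer calls, 6, but held only 41 protein-coding genes. Whether either stretch differed from the genome was not tested.

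Some genes were also called between the same genotypes in B cells or lymph node. Of the 587 genes 92 were also called in B cells, which is 15.7% of the T cell list and 30.9% of the B cell list, where 1.24% of genes tested were called, and 90 of them had the same direction. In lymph node 51 were also called, 8.69% of the T cell list and 48.6% of the lymph node list, where 0.475% were called, and 50 had the same direction. Called in all 3 were 30 genes, and 17 of them outside receptor segments, 3 higher and 14 lower. Called in T cells but in neither of the others were 474 genes (80.7%), 361 higher and 113 lower.

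The 17 genes kept their direction in the 3 tissues. Rnf144a, a ubiquitin ligase, had 168 and 162 normalised reads in knockout T cells against 848 and 882 in wild type (log2 fold change -2.39), with -0.90 in B cells and -1.15 in lymph node. F2rl1, the protease-activated receptor PAR2, had 64.2 and 105 against 639 and 857 (-3.14, with -2.68 and -2.17). Xkr6, of a family that includes phospholipid scramblases, had 749.6 and 504 against 29.7 and 35.2 (4.27, with 4.18 and 2.84). None of these overlapped between genotypes in T cells. The netrin receptor Unc5a (-3.81), the membrane protein Serinc3, the interferon-induced Epsti1 (-1.15), BC147527 (-3.39), Lyz1, Lyz2, Klra1, Gas5 and 4 PYHIN genes were among the rest. Outside the 17, Mtmr9, a myotubularin-related phosphatase, rose from 437 and 461 to 1672 and 1899 in T cells (1.99) and by 1.32 on the log2 scale in B cells. Zfp125, a zinc finger gene, was at 0 in knockout T cells, where wild type had 47.5 and 66.8 (at least 39.7-fold lower).

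Among the largest remaining rises, Kcnf1, a modulatory potassium channel subunit, had 178 and 211 normalised reads in knockout against 10.7 and 3.61 in wild type (log2 fold change 4.77). Ccnb1ip1, a ubiquitin ligase known from meiotic crossing over, had 44.4 and 93.2 against 0 and 2.71 (5.67), a value that rests on few wild-type reads. Esm1, a secreted proteoglycan, was at 99.7 and 61.5 against 9.50 and 6.32 (3.35). The knockout libraries were above the wild-type libraries in all 3. Among the falls, Cyp2d22, a cytochrome P450, had 28.6 and 19.6 against 141 and 169 (-2.69), and the amino acid transporter Slc6a19 had 147 and 68.0 against 383 and 447 (-1.95). Adamdec1, a metalloprotease of macrophages and dendritic cells, was at 0 in knockout against 156 and 82.1 in wild type, at least 82.6-fold lower by the floor of 3 reads. The cytokines Il1b (2.08) and Il18 rose, Il1b from 45.1 and 44.2 to 148 and 228 and Il18 from 80.7 and 57.7 to 226 and 166 normalised reads, and both are made by macrophages as well.

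**Figure D5:**
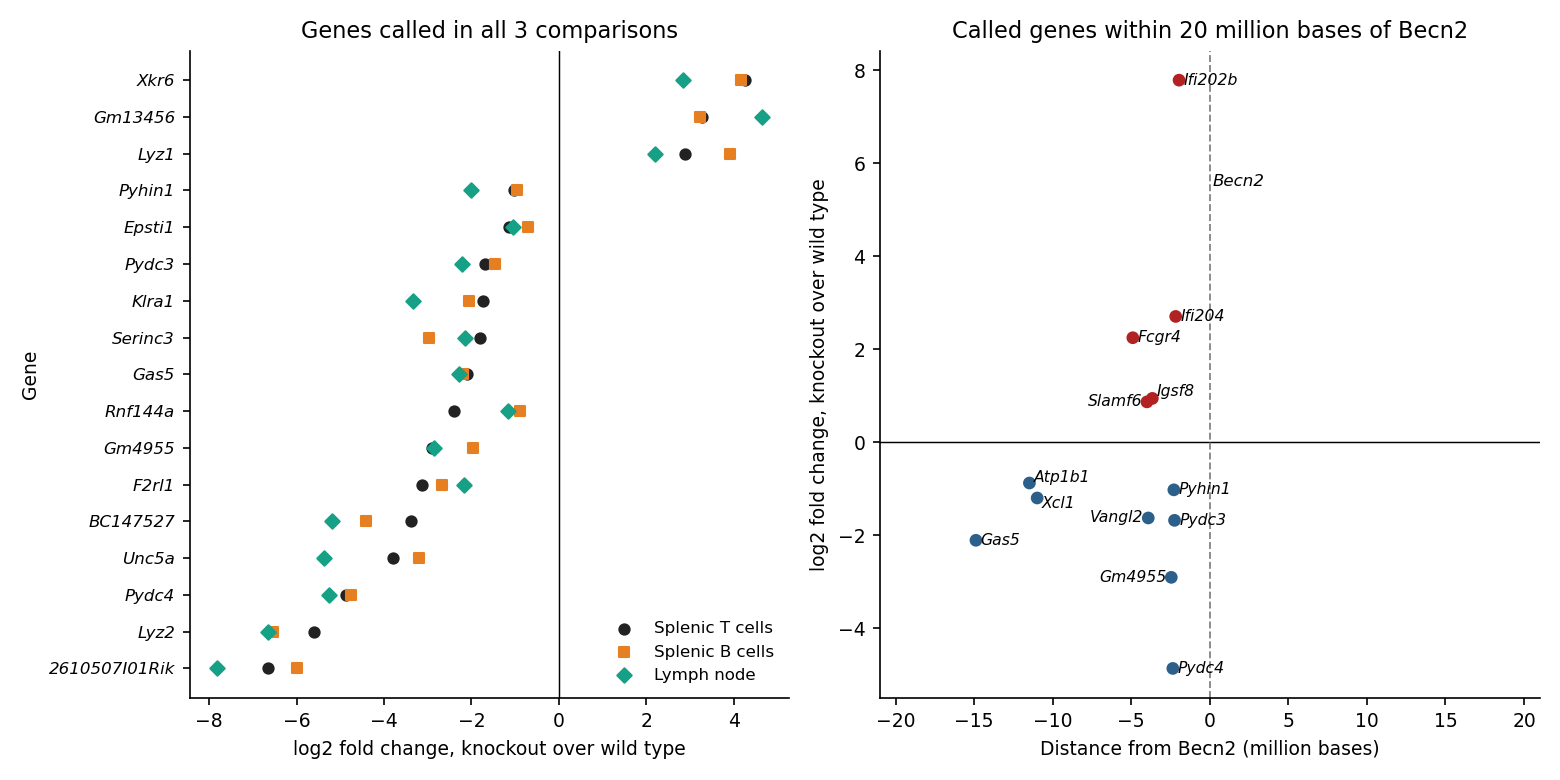
Left, log2 fold change, knockout over wild type, in T cells, B cells and lymph node for the 17 genes outside receptor segments called in all 3, and each gene has its 3 points on one side of 0. Right, log2 fold change in T cells against distance from Becn2 in Mb for the called genes within 20 Mb with reads in both genotypes, all of which lie at negative distance.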

How the data were processed

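Polyadenylated RNA was enriched with oligo(dT) and sequenced on Illumina HiSeq, per the labels' protocols, and the submitters' processing notes name CASAVA 1.8, DESeq and GRCm38 (mm10). The aligner, gene counter, strand setting and purification of the T cells are not given in the sources used here. The deposited signal values are group means of read counts that the authors divided by DESeq size factors, and the p-values and adjusted p-values are the authors' from DESeq, listed for called genes (adjusted p under 0.05). Total depth is unknown, and the precision is limited by 2 libraries a group.

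Whole reads per library and size factors were recovered from the printed digits of the means. For lymph node and tumour groups that were in 2 tables, the reads were the same for 428 of 428 genes. No T cell group was in 2 tables, so the T cell reads were not checked in this way. The method was tested on simulated data. The number of genes tested followed from the relation of p-value and adjusted p-value. No count model was refitted, since genes not called have no values. Intervals (95%) and the floor of 3 reads cover counting error only. Genes were placed with GENCODE M21, which held 582 of 587. Python 3.11.15, numpy 2.4.6, pandas 2.3.3, scipy 1.17.1 and matplotlib 3.10.9 were used.

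The members and gene lists were chosen with earlier results of these data known. Named genes were the 15 largest rises and 15 largest falls with a mean of at least 50, up to 10 called members of each list, the leading receptor segments, up to 25 genes shared with B cells or lymph node, and genes within 20 Mb of Becn2; other genes were named after their values were seen. Alternatives were a stricter adjusted p (0.01), a 2-fold minimum, leaving out each library, and leaving out segments and markers of other cells.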

Additional observations from a re-analysis of the deposited data

Results flagged for a closer look

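Irf4, a transcription factor of activated lymphocytes and plasma cells, had a log2 fold change of 1.08 in T cells and -0.77 in B cells, where knockout libraries had 2390.3 and 2845 normalised reads against 4142 and 4758 in wild type. Myof, a membrane repair protein, was at 1.30 in T cells, with 168 and 166 against 67.7 and 67.7, and at -1.76 in B cells, with 164 and 316 against 834 and 793. Fam84b was at -0.99 in T cells, with 155 and 124 against 259 and 296, and at 1.12 in lymph node, with 717 and 744 against 312 and 360.2. In each gene both knockout libraries lay on one side of wild type in T cells and on the other side in the second tissue. The difference between tissues was not tested.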

How the results depend on the processing

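Without receptor segments and listed markers of other cell types, 273 genes were higher. At an adjusted p under 0.01, 105 genes were lower, and the lists kept 6 ribosomal protein genes, 11 T cell receptor segments, 1 naive gene, 3 complement, 7 interferon-stimulated and 5 lysosome genes. At a change of at least 2-fold, 85 genes were lower, and the lists held 1 ribosomal protein gene, 0 immediate early, 0 naive, 4 follicular helper, 6 interferon-stimulated and 2 lysosome genes. With 1 library left out, between 1 and 32 of 32 ribosomal protein genes stayed at least 1.5-fold lower, the lowest without knockout library A, and between 1 and 3 of 3 naive genes, the lowest without wild-type library B. Fewer genes pass a stricter threshold by construction, and the cause of the changes between libraries was not tested. Genes called higher numbered 288 at an adjusted p under 0.01 and 322 at 2-fold or more. With 1 library left out, 390 to 411 higher genes kept a 1.5-fold difference, as did 120 of 168 lower genes without knockout library A. Of 103 counts and shares under the alternatives, 17 moved away from the main value by more than a set limit. The limit was 1.5 times or, for shares, the counting interval. No direction turned among 863 values of 190 named genes. Where the genotypes do not overlap, leaving out a library cannot turn a direction, so this gives no support to the directions. Leaving out libraries for the gene lists and the summing of near-identical copies were chosen after seeing the data. No paired analysis was possible because the table gives group means, and the recovered libraries carry no replicate number. Genes that were not called have no values here, so other count models, normalizations and low-count filters could not be run.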
